A study of Mus musculus with 9 samples.

Results

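Gp1bb, Gp5, Pf4 and Treml1 are 4 platelet genes, taken by name from a table of 2402 genes measured in 9 mouse bone marrow libraries. Gp1bb and Gp5 encode the beta chain of glycoprotein Ib and glycoprotein V, subunits of one receptor. Pf4 encodes platelet factor 4, a chemokine stored in platelet granules, and Treml1 encodes TLT-1, a receptor kept in granule membranes until a platelet is activated. All 4 genes passed the filter on low values, which asked for 10 or more normalized counts in 2 or more libraries, as did 2341 genes in all.

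The libraries came from male C57BL/6 mice that carry a Flt3-driven Cre recombinase and the mTmG reporter, which switches a cell and all its descendants from a red protein, Tomato (Tom), to a green one, GFP, once Cre has acted. The labels name 4 groups. Megakaryocyte progenitors (MkP) that were GFP+ came from young mice of 3 months (3 samples) and from old mice (2 samples). Old mice also gave Tom+ MkP (2 samples) and haematopoietic stem cells (HSC) that were Tom+ (2 samples), and their age is given as 18-20 months in one field and 20 months in another. MkP were sorted as lineage-negative cKit+ Sca1- CD150+ CD41+ cells, and HSC as lineage-negative cKit+ Sca1+ CD150+ Flk2- cells. Flt3 drives Cre in all groups, so a colour records whether Flt3 was ever expressed in the ancestry of a cell. Whether each sample is 1 mouse or a pool is not given.

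The 9 rows of the table carry no sample names. No row was given a group, so libraries are numbered 1 to 9 by row, as a name only, and no group mean or test between groups is given. The libraries mix ages, colours and cell types. The intervals below are exact 95% intervals of recovered reads and cover counting error only. They do not cover the spread between animals, nor that the extremes were picked out of 9 libraries.

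The von Willebrand factor receptor of platelets, the GPIb-IX-V complex, is built from the products of Gp1ba, Gp1bb, Gp9 and Gp5. The alpha chain of GPIb binds the ligand, the beta chain is linked to it by disulfide bonds, glycoprotein IX is needed for surface expression, and glycoprotein V is a more loosely attached subunit that thrombin can cleave. Loss of the alpha or beta chain or of glycoprotein IX causes Bernard-Soulier syndrome, a bleeding disorder with giant platelets, whereas loss of glycoprotein V does not. Granule proteins such as platelet factor 4 are made by megakaryocytes and their progenitors and are passed on to platelets, and GATA1 and ETS factors such as FLI1 are known activators of many of these genes.

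The sequence before each gene start is shown because GATA and ETS factors are known to act on platelet gene promoters. RefSeq (GRCm38.p6) gave a promoter for 4 of the 4 genes, and windows of 300 bases (250 before and 50 after the annotated start) were searched on both strands for 4 GATA motifs and 2 ETS motifs. The GATA motifs were AGATAA or its variant AGATAG, and TGATAA or its variant TGATAG. The ETS motifs were AGGAAG or its variant CGGAAG. Capitals mark matches, those on the other strand appearing as the reverse complement. Positions count from the start, with the last base before it as -1, and the sequences run 5′ to 3′ along the gene. For Gp1bb only 30 bases around the GATA match are shown, since the window lies in an untranslated region of the neighbouring gene Sept5.
Gp1bb, chr16:18622408-18622437, minus strand: gcacctccccgcCTATCAtaagggaacaag
Gp5, chr16:30310782-30311031, minus strand: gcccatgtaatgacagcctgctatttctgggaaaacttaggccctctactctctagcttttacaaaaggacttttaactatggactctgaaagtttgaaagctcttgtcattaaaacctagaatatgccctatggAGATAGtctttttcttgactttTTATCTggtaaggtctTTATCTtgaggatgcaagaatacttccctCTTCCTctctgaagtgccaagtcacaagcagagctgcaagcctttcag
Pf4, chr5:90772185-90772434, plus strand: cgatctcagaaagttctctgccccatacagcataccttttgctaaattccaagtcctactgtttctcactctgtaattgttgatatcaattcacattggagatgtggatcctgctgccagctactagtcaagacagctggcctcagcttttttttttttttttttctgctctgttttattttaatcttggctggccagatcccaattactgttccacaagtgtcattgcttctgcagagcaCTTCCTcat
Treml1, chr17:48359666-48359915, plus strand: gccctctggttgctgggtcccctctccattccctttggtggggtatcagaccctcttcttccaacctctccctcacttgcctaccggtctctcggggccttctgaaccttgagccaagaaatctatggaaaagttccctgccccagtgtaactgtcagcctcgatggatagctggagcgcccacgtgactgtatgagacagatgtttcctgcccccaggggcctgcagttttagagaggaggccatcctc

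Of the 4 windows, 3 held a GATA match and 3 held an ETS match. Gp5 had 3 GATA matches, at positions -115, -93 and -77, and an ETS match at -48. Gp1bb had a GATA match at -22 and ETS matches at -90 and, after the start, at 21. Pf4 had an ETS match at -9 and a GATA match after the start, at 37. No match to these letters lies in the Treml1 window. Among 32851 RefSeq promoter windows of this length, 29.8% held a GATA match and 46.5% an ETS match, so single matches are common.

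In the mm10 assembly with GENCODE M21 annotation, Gp1bb is a protein-coding gene on the minus strand of chromosome 16, from 18620317 to 18622403. Its exons overlap those of Sept5, a septin gene on the same strand (18620502 to 18629954), over 1902 of 2087 exon bases (91.1%). Reads in that stretch cannot be told apart by strand, and the authors' rule for such reads is unknown. The table has no gene named Sept5, so its level could not be analysed here. Gp5 lies on the same chromosome and strand from 30307685 to 30310779. Pf4 lies on chromosome 5 from 90772435 to 90773383 and Treml1 on chromosome 17 from 48359916 to 48367176, both on the plus strand.

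All 4 genes were far lower in libraries 3 and 4 than in the other 7. Gp1bb had normalized counts of 1708, 6673, 133, 252, 7408, 6483, 12267, 5662 and 4735 in libraries 1 to 9. Library 7 was highest, libraries 3 and 4 were lowest, and library 1 stood between that pair and the remaining 6. The highest was 92.0 times the lowest (interval 76.4 to 112), and 7.18 times (interval 6.73 to 7.67) without libraries 3 and 4. With scaling to the table total the latter was 4.89 times. Counting error alone covered 1 of the 8 steps between neighbours in the order, that of libraries 2 and 6.

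Gp5 had 8982, 9211, 189, 259, 11790, 9718, 14639, 4245 and 5685 normalized counts in the same order. Library 7 was again highest and libraries 3 and 4 lowest, but library 1 lay in the middle of the order, next to library 2, from which it could not be separated (ratio 1.03, interval 0.986 to 1.07). The lowest of the other 7 was library 8, at 16.4 times library 4. The range was 77.6-fold (66.3 to 91.3) over all libraries and 3.45-fold without libraries 3 and 4.

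Pf4 was the most abundant of the 4, with 34116, 39032, 899, 1412, 26211, 33468, 39766, 19643 and 17894 normalized counts. Libraries 7, 2, 1 and 6 were highest, and libraries 8 and 9 were lowest of the 7 outside the pair. On the deposited scaling all 8 steps in the order were beyond counting error, which at these counts includes steps as small as 1.02-fold. The order itself moved with the scaling, which the intervals do not cover. With scaling to the table total, library 7 fell below libraries 2 and 1, and library 5 fell below library 8. Library 7 was also below libraries 2 and 1 with the trimmed mean scaling, but stayed highest by median of ratios. Without libraries 3 and 4 the range was 2.22-fold, the narrowest of the 4 genes.

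Treml1 was the least abundant, with 1391, 1527, 31.9, 21.7, 2064, 2248, 2848, 788 and 1310 normalized counts. Libraries 7, 6 and 5 were highest. Libraries 3 and 4 rested on 27 and 19 reads and could not be ordered (ratio 1.47, interval 0.785 to 2.79), and libraries 2 and 1 and libraries 1 and 9 were also within counting error. The range of 131-fold (83.6 to 218) was the widest of the 4 and its size is limited by these few reads. It was 3.61-fold without the pair.

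**Figure D1:**
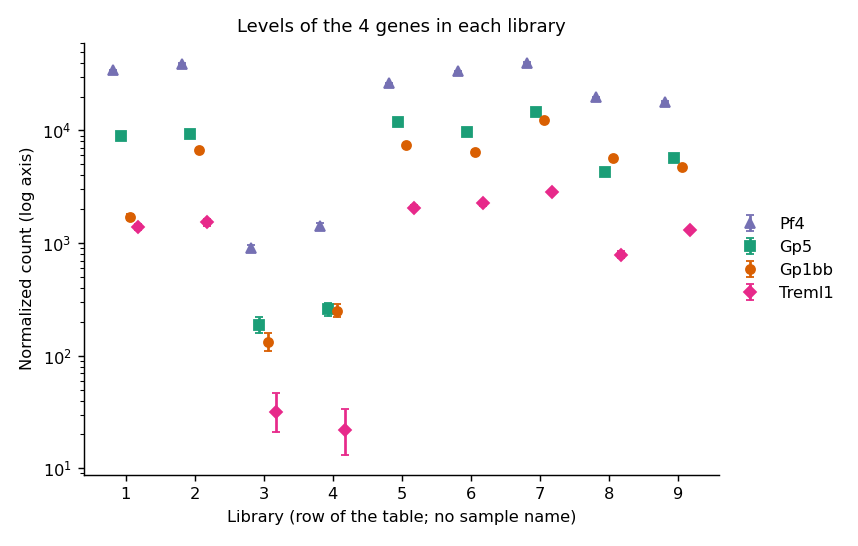
Normalized counts (log axis) of Pf4, Gp5, Gp1bb and Treml1 in each of the 9 unnamed libraries; bars are exact 95% counting intervals. All 4 genes are lowest in libraries 3 and 4, and Gp1bb lies close to Treml1 (1708 against 1391) in library 1 only.

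Set against the whole table, ranges past 4-fold and 8-fold were not particular to these genes. On normalized counts with 1 added, the highest library was 4-fold or more above the lowest for 4 of the 4 genes and for 66.4% of the 2341 genes. It was 8-fold or more above for 4 of 4 against 41.6%. The ranges themselves were larger, from 44.2-fold for Pf4 to 125-fold for Treml1, against a median of 6.16-fold over the 2341 genes. The share of genes with ranges of that size is not given here. The sizes of the ranges over all 9 libraries moved with the scaling, Gp1bb having 40.01-fold on the table total and 150-fold by median of ratios. Without libraries 3 and 4 only Gp1bb reached 4-fold, against 20.8% of 2133 genes. In 4 of 4 genes libraries 3 and 4 were both below each of the other 7. This held for 40.8% of the 2341 genes, and for 51% both were above each of the other 7. How the measured genes were chosen is not stated. The shares given here and below are therefore of these genes only, not of all mouse genes. A gap of at least 10-fold between the pair and each of the other 7 was found for 1.79% of genes, among them Gp5 (16.4-fold), Pf4 (12.7-fold) and Treml1 (24.8-fold). For Gp1bb that gap was 6.78-fold, library 1 being the lowest of the 7. The 10-fold limit was chosen after the values were seen, and with scaling to the table total Pf4 fell below it, at 9.38-fold.

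Libraries 3 and 4 also stood apart in marker genes. The 8 measured stem cell markers (of 12 listed), such as Procr and Hlf, were each higher in libraries 3 and 4 than in any other library, as were 51% of all genes, and their summed level was 14170 to 18394 normalized counts there against 168 to 1693. The 6 measured megakaryocyte markers (of 10), 3 of which are genes of this report or its complex, were each lower, as were 40.8% of all genes, with sums of 7011 to 12875 against 79299 to 145078. Measured granulocyte and monocyte markers (4 of 10) summed to 12329 to 12916 against 366 to 2142, but 2 were higher in the pair, 2 were lower, and 2 were at 0 in at least 1 library. The 2 measured endothelial markers (of 5) were both higher, with sums of 1213 to 2110 against 4.2 to 48.2. The 3 measured erythroid markers (of 10), 2 of them lower, summed to 287 to 309 against 5752 to 8528. The 3 measured T and NK markers (of 6), 2 higher and 1 lower, summed to 723 to 1180 against 2236 to 27179. The highest of these sums rested on 1 gene each. Aqp1 had 8514 of the erythroid 8528 in library 8, and Nkg7 had 27161.5 of the T and NK 27179 in library 2. Prtn3 had 12248 of the granulocyte and monocyte 12916 in library 3. In library 8 the erythroid markers Rhd and Ermap were at 3.15 and 10.48, against 2.36 to 9.15 in the pair. Single markers of mast cells, B cells and macrophages were at most 103 in any library. None of the stem cell or megakaryocyte markers measured was at 0 in a library. Their part in the levels of the 4 genes was not tested. In such bulk libraries fewer cells of a type and less RNA per cell cannot be told apart. The reads of libraries 1 to 4 on the genes of the table (1790670 to 2050047) were fewer than those of libraries 5 to 9 (2749320 to 4373460).

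The comparison of Gp1bb with Gp5 within each library does not depend on how libraries were scaled. Reads of Gp1bb per read of Gp5 were 0.190, 0.724, 0.706, 0.973, 0.628, 0.667, 0.838, 1.33 and 0.833 in libraries 1 to 9. Library 1 was low and library 8 high, and the other 7 lay between 0.628 and 0.973. Library 4 itself set the upper end, and the next below it was library 7 (0.838). Gp1bb had fewer reads than Gp5 in 7 libraries, with intervals below 1. It had more in library 8 (interval 1.28 to 1.39), and in library 4 the interval ran across 1 (0.805 to 1.18, from 220 and 226 reads). Gp1bb and Gp5 were thus low together in libraries 3 and 4, by at least 6.78-fold and 16.4-fold against every other library (4.81-fold and 13.4-fold with scaling to the table total). Their ratio in library 3 (0.706) lay between those of libraries 5 (0.628) and 7 (0.838). In library 4 it was above all but library 8, with an interval that overlapped that of library 7 (0.813 to 0.863).

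**Figure D2:**
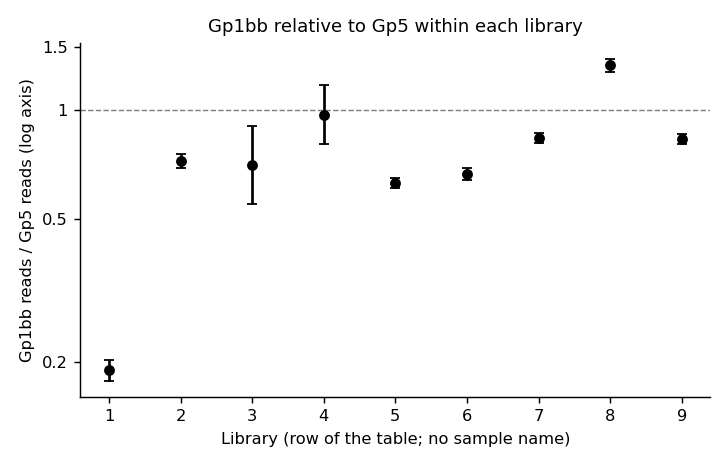
Gp1bb reads divided by Gp5 reads in each of the 9 libraries (log axis), with exact 95% counting intervals; the dashed line marks equal reads. Library 1 (0.190) and library 8 (1.33) lie outside the span of 0.628 to 0.973 of the other 7.

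In library 1 the ratio was 0.190 (interval 0.178 to 0.203, from 1041 and 5475 reads), and the next lowest was 0.628 in library 5. The ratio spanned 7.02-fold over the 9 libraries and 2.12-fold without library 1 (5.12-fold without library 8). The low ratio came with a low Gp1bb, not a high Gp5. Gp1bb in library 1 was 2.77 times below the lowest of libraries 2 and 5 to 9, whereas Gp5 (8982), Pf4 (34116), Treml1 (1391), Gp1ba (425) and Gp9 (2313) in library 1 were all within the range of those 6. Gp1bb was also lowest in library 1 relative to Pf4 (0.0501 reads per read, against 0.148 to 0.308 elsewhere) and to Treml1 (1.23 against 2.88 to 11.6). Relative to Gp1ba it was 4.02 in library 1 (interval 3.50 to 4.62). That interval overlapped those of libraries 3 (2.91 to 7.28) and 4 (3.68 to 7.27). Relative to Gp9, library 1 (0.738) was not lowest. Libraries 3 and 4 had 0.386 and 0.523, and the others 1.75 to 5.59.

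Few genes showed such a gap. Among 1124 genes with at least 100 normalized counts in each of libraries 2 and 5 to 9, 2 (0.178%) were at least 2-fold lower in library 1 than in every one of those 6, on values with 1 added. They were Gp1bb and Rbpms (52.5 against 140 to 638), an RNA-binding protein gene that was named after its values were seen. The same count was 0 for libraries 2, 5, 6, 7 and 9 and 7 for library 8. This measure was chosen after the gap had been noticed. Under the 3 other scalings the gap of Gp1bb was 2.66- to 2.90-fold.

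Gp1bb has a GC-rich transcript (62.0% of bases, against 59.3% for Gp5, 56.3% for Treml1 and 50% for Pf4). The 109 genes with 60% or more GC had a median log2 difference of -0.04 between library 1 and the median of libraries 2 and 5 to 9, the 4 classes below 60% had -0.12 to 0.02, and Gp1bb itself had -1.94. A class median does not speak for a single gene, and the part of GC content and of reads shared with Sept5 in this result was not tested.

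**Figure D3:**
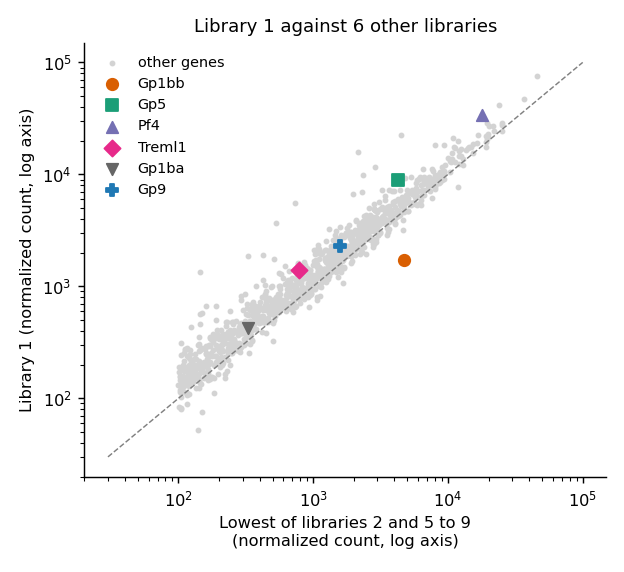
Level in library 1 (vertical) against the lowest level among libraries 2 and 5 to 9 (horizontal), in normalized counts on log axes, for 1124 genes at 100 or more there; the dashed line marks equal levels. Gp1bb lies 2.77-fold below the line, and Gp5, Pf4, Treml1, Gp1ba and Gp9 lie above it.

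The other receptor subunits followed another order, though much of that of Gp1ba was within counting error. Gp9 had 2313, 1592, 346, 482, 1639, 2011, 2195, 3237 and 2699 normalized counts, with libraries 8 and 9 highest, and Gp1ba had 425, 338, 29.5, 49.2, 424, 427, 462, 730 and 327, with library 8 highest. Both were lowest in libraries 3 and 4, like Gp1bb and Gp5. Counting error alone covered 5 of the 8 steps between neighbours for Gp1ba, those among libraries 7, 6, 1 and 5 included, and 2 of 8 for Gp9. The lowest of the other 7 was 3.30 times the higher of the pair for Gp9 and 6.64 times for Gp1ba (interval 4.85 to 9.30). It was 6.78 times for Gp1bb (5.86 to 7.88) and 16.4 times for Gp5 (14.4 to 18.9), the intervals of Gp1ba and Gp1bb overlapping. The Gp1bb value was set by library 1 (1708 normalized counts), the next lowest of the 7 being library 9 (4735). Library 8 shows the contrast most plainly, since it was highest for Gp9 and Gp1ba and, outside the pair, lowest for Gp5. The number of Gp5 reads per Gp9 read was 1.31 in library 8, 2.11 in library 9, 0.537 and 0.546 in libraries 4 and 3, and 3.88 to 7.20 in the other 5. The ratio of Gp1ba to Gp9 spanned 3.03-fold, that of Gp5 to Gp9 13.4-fold and that of Gp1bb to Gp9 14.5-fold.

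**Figure D4:**
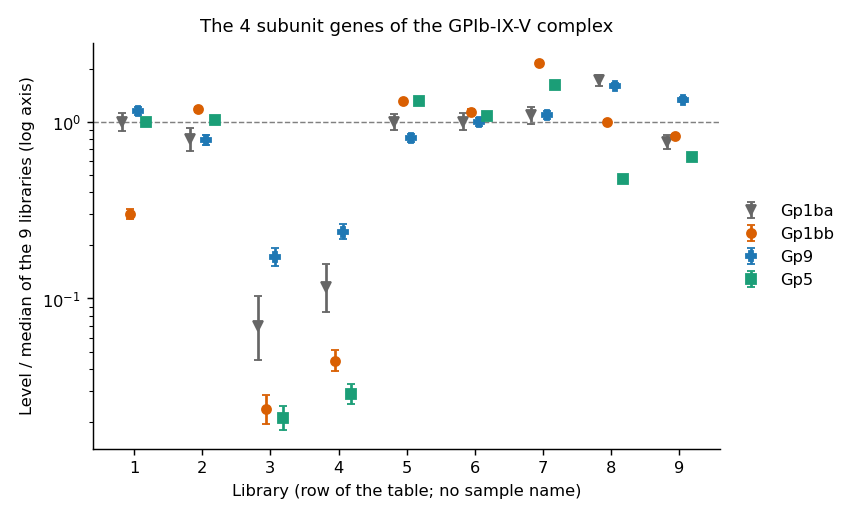
Level of each GPIb-IX-V subunit gene divided by its own median over the 9 libraries (log axis), with exact 95% counting intervals. Gp1bb alone is low in library 1, and in library 8 Gp1ba and Gp9 are highest while Gp5 is at its lowest outside libraries 3 and 4.

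Levels of different genes can be set side by side only per length. Per kilobase of GENCODE M21 exon, the median over libraries was 36354 normalized counts for Pf4, 4088 for Gp5, 2713 for Gp1bb, 2283 for Gp9, 992 for Treml1 and 156 for Gp1ba. Per kilobase the Gp1bb to Gp5 ratio was 0.20 in library 1, 1.40 in library 8 and 0.661 to 1.02 in the others. The sources used here do not give the gene models behind the deposited counts, so these levels depend on the lengths chosen.

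Over the 9 libraries the ratio of Pf4 to Gp5 ranged from 2.22 to 5.46 reads per read and that of Treml1 to Gp5 from 0.0841 (library 4, 19 Treml1 reads) to 0.231, or 0.155 to 0.231 without libraries 3 and 4. As a measure of likeness, the fold range of the ratio between 2 genes over the libraries was taken for every gene of the table, on values with 1 added, a smaller range being more alike. For Gp5 the 5 closest of 2340 genes were Ppbp, a chemokine gene of platelet granules that lies beside Pf4 (2.34-fold), Proser2 (2.38-fold), Pf4 (2.45-fold), Treml1 (2.64-fold) and Stx11, a syntaxin of granule release (2.67-fold). Gp1bb was at place 87 (7.01-fold), Gp1ba at place 72 (6.11-fold) and Gp9 at place 212 (13.4-fold), and the median over all genes was 159-fold. For Treml1 the closest were Gp5, Ppbp, Proser2, Ache and Ckap2l (2.64- to 3.77-fold). For Pf4 they were Mdm1, Asf1b, Tuba8, Slc14a1 and Gp5 (2.25- to 2.45-fold). Asf1b encodes a histone chaperone and Tuba8 an alpha tubulin.

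**Figure D5:**
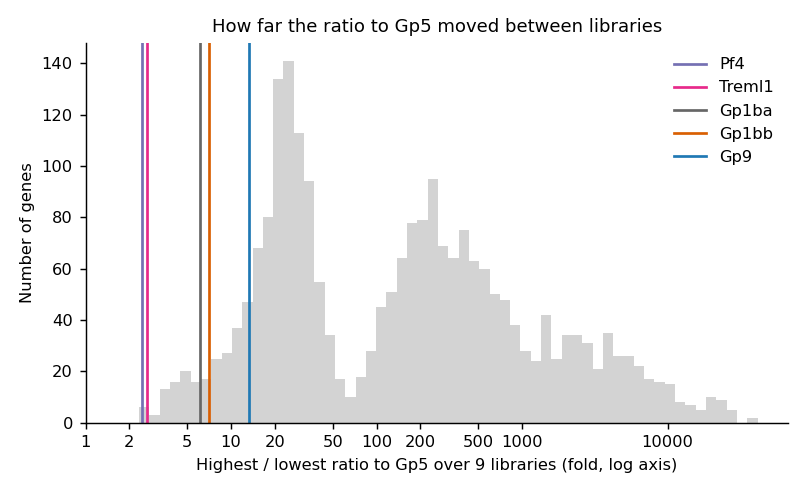
Number of genes by the highest over the lowest ratio to Gp5 over the 9 libraries (fold, log axis, values with 1 added), for 2340 genes. Pf4 (2.45) and Treml1 (2.64) lie at the left edge, ahead of the partner subunits Gp1ba (6.11), Gp1bb (7.01) and Gp9 (13.4).

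For Gp1bb the closest genes over all libraries were Ube2c, Ccnf, Tpx2, Tuba8 and Slc14a2 (4.22- to 4.91-fold), the first 3 being genes of cell division, with Pf4 at place 31 and Gp5 at place 53 of 2340. Slc14a2 had 0 and 2 reads in libraries 3 and 4, so its range rests on the 1 added to each value. The places of Pf4 and Gp5 turned on library 1. Without it Gp5 was at place 2 of 2338 for Gp1bb, and Gp1bb at place 2 for Gp5 (2.12-fold), with Pf4 at place 1 for Gp1bb (2.07-fold). The places also rest on libraries 3 and 4, in which genes low there stay in proportion: without them Gp5 was at place 1021 of 2132 for Gp1bb, Pf4 at place 403 and Treml1 at place 60 for Gp5, and the closest genes to Gp5 were Mrpl36, Hn1, Cmc2, Atp5o and Snrnp25 (1.23- to 1.29-fold).

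Related platelet genes were counted from fixed lists. Of 21 listed platelet receptors 7 were measured, Treml1 among them, of which 6 were lower in libraries 3 and 4 than in any other library (background 40.8%) and 1, the adhesion gene Jam3, was higher (background 51%). Itga2b, the CD41 integrin chain, had a median of 68308 normalized counts, Cd9, a tetraspanin, 17369, F2rl2, a thrombin receptor, 3254, and Tbxa2r, the thromboxane receptor, 2285. Of 30 alpha granule cargo genes 6 were measured, Pf4 among them, and 6 were lower in the pair. Of these 5 passed the filter, to which the background of 40.8% refers. The other, F5, had 3 and 0 reads in libraries 3 and 4 against 4 in library 8. Serpine2, a protease inhibitor, had a median of 16934, Timp3, a metalloproteinase inhibitor, 511 and Ppbp 183, the last on 4 and 5 reads in the pair.

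Of 35 listed genes of granule biogenesis and secretion 10 were measured. In libraries 3 and 4, 5 were lower than in any other library, against 40.8% of all genes, 3 were higher, against 51%, and 2 overlapped. Among the lower ones were Dtnbp1, a BLOC-1 subunit gene (median 3170), Rab27b, a GTPase of granule release (2116), Slc35d3, a gene of dense granule formation (979), and Vps33b, a gene of alpha granule formation (790). The 3 higher ones were Unc13d (1763 to 2030 in the pair, 548 to 1402 elsewhere), Slc18a2 (461 to 707, 55.3 to 363) and Vipas39 (282 to 297, 156 to 211). The ranges of the 9 that passed the filter had a median of 4.29-fold, below the 6.16-fold of all 2341 genes, whereas the 7 receptors and the 5 filtered cargo genes had medians of 48.2-fold and 44.2-fold. The cargo median was the value of Pf4 itself, and the receptors include Treml1. The other filtered cargo genes ranged from 6.91-fold (Tgfb1) to 206-fold (Serpine2). Of the 3 measured transcription factors of 20 listed, Gata1 (median 6364) ranged 208-fold, Gfi1b (3568) 6.56-fold and Fli1 (3625) 3.67-fold, and all 3 were lowest in libraries 3 and 4. Of 9 ligand and signalling partners of the receptor only Pik3r1, a phosphoinositide kinase subunit gene, was measured, at 344 and 1377 in libraries 4 and 3 and 51.1 to 208 in the others.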

How the data were processed

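Per the submitters' processing notes, the tools were Bowtie2, STAR and DESeq and the build mm10, with no roles or versions given. The counter and annotation, and how genes were picked for the table, are not stated there. The deposited values are 1 table of normalized counts (a signal, called normalized by the authors, whose scaling method is not stated), with 2402 columns of genes and 9 unnamed rows, none of which was mapped to a sample. Low values of a row are whole multiples of 1 step (0.724 to 1.96 normalized counts); dividing by it gave reads, whole within 0.1 for 100% of values. A count of 0 would allow 3 reads; the 4 genes were above 0 in every library. Steps were checked on simulated data. None of the 36 pairs of libraries held identical values.

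Ratios have exact conditional binomial (Clopper-Pearson) 95% intervals, levels exact Poisson ones (scipy 1.17.1). Replicate independence is not stated. Alternatives were 3 scalings (table total, median of ratios, trimmed mean of M values written for this work), pseudocounts of 1 and 5, no filter, and leaving libraries out. The genes named are mainly the 4 genes and their complex, the 5 closest genes of each, and up to 4 of each list by median. Genes and lists were chosen with earlier results of these data known. GC values covered 94.2% of filtered genes.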

Additional observations from a re-analysis of the deposited data

Results flagged for a closer look

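For the 4 genes and the 6 ratios between them, the gap of the lowest or highest library to its neighbour was set against the whole range of the 9 libraries on the log2 scale, with Dixon's 95% limit for 9 values. The 9 libraries are not one group, and chance alone passes this limit in about 1 in 20 groups. Of 10 tests 4 passed it, and the ratios share genes. Library 1 stood apart in the ratio of Gp1bb to Gp5 (gap 0.614 of the range) and of Gp1bb to Pf4 (0.597). Library 4 stood apart in the ratio of Treml1 to Gp5 (0.604) and of Treml1 to Pf4 (0.511), both of which rest on 19 Treml1 reads there. On the linear scale 0 of the 10 passed.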

How the results depend on the processing

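No paired analysis was possible because no row of the table carries a sample name or replicate number. The fold range of each gene depended on how the libraries were scaled, with or without libraries 3 and 4. The 3 alternative scalings used only the genes of the table. Of the 2341 filtered genes, 51% were above and 40.8% below every other library in both libraries 3 and 4. The scalings therefore cannot show which fold range is right. Scaling to the table total moved all genes by 0.65 and 0.50 (log2) in libraries 3 and 4 and by -0.55 in library 7, relative to the median library, and gave 40.01-fold for Gp1bb, 33.7-fold for Gp5, 25.0-fold for Pf4 and 63.2-fold for Treml1. Median-of-ratios scaling moved libraries 3 and 4 by -0.60 and -0.33 and gave 150-fold, 127-fold and 72.2-fold for the first 3. Under these and the trimmed mean scaling the 4 genes and both partner subunits were lowest in libraries 3 and 4, and Gp1bb was lowest of the other 7 in library 1. Without libraries 3 and 4 the ranges were 7.18-fold for Gp1bb, 3.45-fold for Gp5, 2.22-fold for Pf4 and 3.61-fold for Treml1. With scaling to the table total they were 4.89-, 2.05-, 1.88- and 2.14-fold, and by median of ratios 7.56-, 3.71-, 2.42- and 3.88-fold. On the deposited values, leaving out 1 library at a time gave 48.7- to 92.0-fold for Gp1bb, 56.6- to 77.6-fold for Gp5, 28.2- to 44.2-fold for Pf4 and 89.4- to 131-fold for Treml1. The range of the Gp1bb to Gp5 ratio was 2.12- to 7.02-fold, the lowest without library 1. The place of Gp5 for Gp1bb was 2 to 77 and that of Gp1bb for Gp5 2 to 142, from 53 and 87 over all libraries. Without libraries 3 and 4 these places were 1021 and 1544, and by the median absolute deviation of the log2 ratio Gp5 was at place 25. Counts of genes past 4-fold without libraries 3 and 4 were 1 of 4 for the genes reported and for the receptor subunits, 1 of 7 for platelet receptors, 3 of 5 for cargo, 3 of 9 for granule biogenesis and 0 of 3 for transcription factors, against 20.8% of 2133 genes. Scaling to the table total left 1 transcription factor past 4-fold. Why these values moved, beyond the libraries left out, was not tested. Of 211 alternative values 179 stayed within the counting interval or within 1.5 times the count. Depth limits the values of Treml1 (27 and 19 reads), Gp1ba (25 and 43), Ppbp (5 and 4) and Slc14a2 (0 and 2) in libraries 3 and 4.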
